A study of Homo sapiens with 15 samples.

Results

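The genes described here are 5 that encode antagonists of WNT signalling (SFRP1, SFRP2, SFRP5, FRZB and APCDD1L) and 5 that encode Frizzled receptors (FZD4, FZD5, FZD7, FZD8 and FZD10). They were chosen by symbol, 10 genes of the 60605 in the table, with the differences between the arms of this experiment already known, so their levels are given as a description and carry no test. RNA was sequenced in bulk from 15 libraries of the cardiac differentiation of H1, a human embryonic stem cell line with a wild-type genotype. Whether these libraries came from 1 run of differentiation is not given in the sources used here. All cells received CHIR99021, which activates WNT signalling, on day 0 and insulin on day 1, and days 0, 1 and 2 had 1 library each, shared by the later arms. After day 2 there were 3 arms with 1 library each on days 3, 5, 7 and 10. NP-ctrl cells (not passaged) were left in their wells without an added inducer. NP-IWP2 cells were also left in place but were given IWP2, which blocks WNT secretion, from day 2. From day 5 onward the cells of this arm were cultured without IWP2. Passaged cells were dissociated with EDTA on day 2, replated at a lower density in new Matrigel-coated wells and given no WNT inhibitor, so dissociation, replating and density cannot be told apart. The paper states that, after its survival tests, the ROCK inhibitor Y27632 was used in every later differentiation experiment. Insulin was used in some of its passaging experiments, and whether these libraries received it on replating is not given in the sources used here. An effect of such additions cannot be told apart either. The question was whether replated cells made their own WNT antagonists or changed their receptors.

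WNT proteins act by binding the cysteine-rich outer domain of a Frizzled receptor together with a co-receptor, LRP5 or LRP6. The secreted Frizzled-related proteins SFRP1, SFRP2 and SFRP5, and FRZB, carry a similar cysteine-rich domain without a membrane anchor and can bind WNT proteins outside the cell, whereas APCDD1L is a membrane protein of the APCDD1 family, whose founding member inhibits WNT signalling at the cell surface. In heart development WNT signalling is needed to form mesoderm and is then restrained for cardiomyocytes to form, which is why WNT inhibitors such as IWP2 are used in cardiac differentiation.

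Total counts ranged from 13254723 to 20250115 per library. Levels are FPKM, counts scaled by exonic length and library total, so levels of different genes are compared per length. Arms were compared within a day as the difference in log2(FPKM + 1), a scale that understates changes of low genes, and a difference of at least 1 in size was counted. Ratios of FPKM carry exact 95% intervals that cover counting error only, since no arm had a second library on any day. In the passaged arm 1.53% of the counts on day 3 and 10.3% on day 10 came from the mitochondrial genome, against 3.71% to 6.02% in the static arms. Rescaling to TPM moved the median of all genes in passaged against NP-ctrl libraries to 0.28 on day 3, -0.22 on day 7 and -0.38 on day 10 on the log2 scale, and in passaged against NP-IWP2 libraries to -0.28 on day 10. In NP-IWP2 against NP-ctrl it moved the median to 0.18 on day 3 and -0.11 on day 7. No difference of at least 1 described below changed its direction under TPM.

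Of the 4 secreted antagonists among the members, SFRP2 had the highest level on days 0, 1 and 2. The summed FPKM of SFRP1, SFRP2, SFRP5 and FRZB was 465, 271 and 166 on days 0, 1 and 2, and SFRP2 made up 85.7%, 90.9% and 63.8% of it. Other secreted antagonists, not all of them of WNT proteins alone, lie outside this sum. On day 1 DKK4, DKK1 and CER1, of which DKK4 is named because of its level, were at 241, 220 and 200.2 FPKM. SFRP2 was at 246 on that day, and CER1 was above SFRP2 on day 2. On day 3 the sum was 189, 218 and 284 in the NP-ctrl, NP-IWP2 and passaged libraries. On day 5 it was 105, 89.5 and 122 in the same order. The passaged library held the highest sum on both days, by a factor of 1.17 over NP-ctrl on day 5. The order then turned. On day 7 the sum was 429, 178 and 49.7 in the NP-ctrl, NP-IWP2 and passaged libraries, and on day 10 it was 538, 209 and 76.4. The NP-ctrl sum was 8.63 times that of passaged cells on day 7 and 7.04 times on day 10. With TPM in place of FPKM the passaged library was likewise the highest of its day on days 3 and 5 and the lowest on days 7 and 10.

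**Figure D1:**
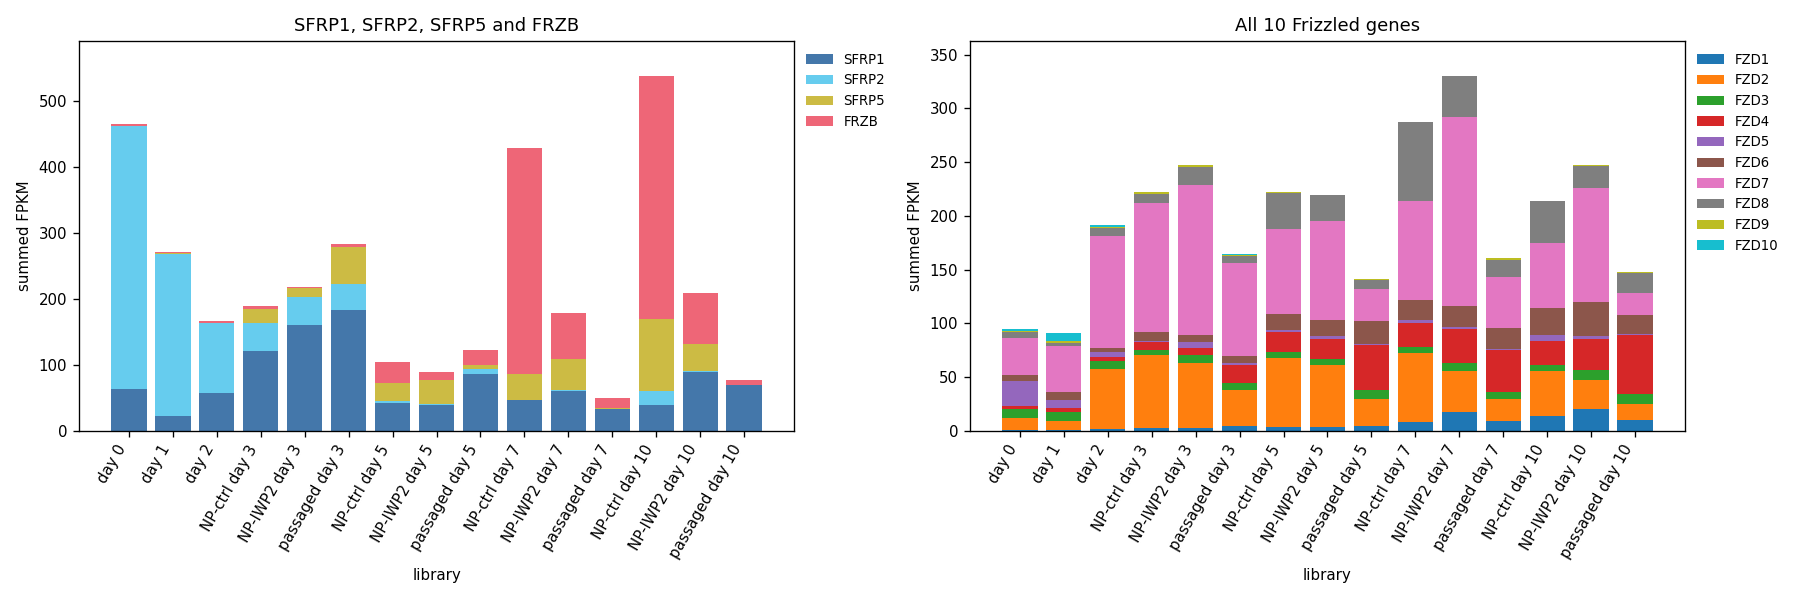
Summed FPKM in each of the 15 libraries, divided by gene, for SFRP1, SFRP2, SFRP5 and FRZB (left) and for all 10 Frizzled genes (right). Each bar is 1 library without an error. The antagonist sum of passaged cells is the highest of its day on day 3 (284) and the lowest on day 10 (76.4, against 538 in NP-ctrl), and its Frizzled sum is the lowest of its day on days 3, 5, 7 and 10.

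What the sum consisted of also differed. On day 10 FRZB made up 68.4%, 37.1% and 9.33% of the sum in the NP-ctrl, NP-IWP2 and passaged libraries. The share of SFRP1 on that day was 7.32%, 42.4% and 89.6%. Passaged cells on day 10 thus had SFRP1 transcripts and little of SFRP2, SFRP5 and FRZB.

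SFRP1 encodes a secreted Frizzled-related protein. The FPKM of SFRP1 was 63.1, 22.1 and 57.3 on days 0, 1 and 2. On day 3 the FPKM reached 120.3, 160.5 and 182 in the NP-ctrl, NP-IWP2 and passaged libraries, the highest value of all libraries. It remained detectable everywhere, with no library under 1929 counts. On day 5 the FPKM was 42.5, 38.9 and 85.4 in the NP-ctrl, NP-IWP2 and passaged libraries. The values were 46.0, 60.5 and 32.4 on day 7 and 39.4, 88.5 and 68.5 on day 10, in the same order. The passaged library was therefore the highest on days 3 and 5, the lowest on day 7, and between the static arms on day 10. The passaged-to-NP-ctrl ratio was 1.52 (95% interval 1.48 to 1.56) on day 3, 2.01 (1.93 to 2.10) on day 5, 0.705 (0.667 to 0.745) on day 7 and 1.74 (1.66 to 1.83) on day 10. Against NP-IWP2 it was 1.14 on day 3, 2.20 (2.10 to 2.30) on day 5, 0.536 on day 7 and 0.774 on day 10.

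SFRP5, another secreted Frizzled-related protein, is known from the early cardiac and foregut regions of vertebrate embryos. The gene lies on chr10:97766751-97771999, minus strand. Its promoter is printed because SFRP5 had the largest difference of the members between passaged cells and NP-ctrl on day 10 on the log2(FPKM + 1) scale (by the ratio of FPKM, SFRP2 was further from NP-ctrl, from 2 counts), and FRZB is given with it for comparison, as both genes were low in passaged cells at the end. The sequences are the 250 bases before the gene start, 5′ to 3′ on the strand of the gene, from RefSeq on GRCh38.p14, at chr10:97772000-97772249 (minus strand) for SFRP5 and chr2:182866638-182866887 (minus strand) for FRZB. Capitals mark any match to 3 motifs searched on both strands, the TCF/LEF motif CTTTGAT, the GATA motif written as AGATAA, and the TATA box motif TATAAA. These motifs do not overlap each other in the members.
SFRP5: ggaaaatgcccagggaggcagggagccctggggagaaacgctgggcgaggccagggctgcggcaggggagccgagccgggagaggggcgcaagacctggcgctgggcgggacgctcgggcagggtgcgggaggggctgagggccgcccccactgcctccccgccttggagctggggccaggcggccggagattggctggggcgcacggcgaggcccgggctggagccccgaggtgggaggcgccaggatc
FRZB: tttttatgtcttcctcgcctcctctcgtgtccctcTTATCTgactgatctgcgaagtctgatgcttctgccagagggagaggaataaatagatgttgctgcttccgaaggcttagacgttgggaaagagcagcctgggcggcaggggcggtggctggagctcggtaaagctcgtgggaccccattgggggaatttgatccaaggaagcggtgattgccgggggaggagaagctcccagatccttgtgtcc
The SFRP5 window held no match, a GC content of 76.8% and 21 CG dinucleotides. The FRZB window held 1 match, to the GATA motif in reverse orientation, whose first base lies 215 bases before the start, with a GC content of 55.6% and 11 CG dinucleotides. Over 35116 RefSeq promoters of this length, 9.17% held the GATA motif, 2.26% the TCF/LEF motif and 10.7% the TATA motif, and the medians were 58% GC and 11 CG dinucleotides. The SFRP5 and FRZB windows thus differ in base composition, and a match is only a match of letters. The promoter table held 6 of the members: SFRP2, SFRP5, FRZB, FZD4, FZD5 and FZD8.

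SFRP5 was nearly silent before day 3. Its FPKM was 1.00, 0.69 and 0.18 on days 0, 1 and 2, the last from 7 counts. On day 3 it was 20.4, 13.7 and 57.5 in the NP-ctrl, NP-IWP2 and passaged libraries. The gene had therefore appeared in all 3 arms within 1 day, 111-fold above day 2 in NP-ctrl (53.7 to 278), 74.6-fold in NP-IWP2 (35.8 to 187) and 313-fold in passaged cells (152 to 780). On day 5 the FPKM was 27.3, 35.4 and 6.68 in the NP-ctrl, NP-IWP2 and passaged libraries. The values were 39.6, 47.1 and 1.20 on day 7 and 110, 41.7 and 0.73 on day 10. Passaged cells were thus the highest on day 3 and the lowest on every later day sampled, while both static arms stayed at 27.3 or above. The passaged-to-NP-ctrl ratio went from 2.81 (2.56 to 3.10) on day 3 to 0.245 (0.208 to 0.287) on day 5, 0.0304 (0.0209 to 0.0428) on day 7 and 0.00669 (0.00413 to 0.0102) on day 10. Against NP-IWP2 it was 4.20 (3.73 to 4.73), 0.189 (0.161 to 0.221), 0.0256 (0.0177 to 0.0359) and 0.0176 (0.0109 to 0.0270).

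FRZB, also called SFRP3, is a secreted antagonist first described in cartilage. The gene lies on chr2:182833275-182866637, minus strand. Its FPKM was 2.55, 1.93 and 2.58 on days 0, 1 and 2. The day 3 values were 4.92, 2.25 and 4.43 in the NP-ctrl, NP-IWP2 and passaged libraries. At that time passaged cells were at 0.901 times NP-ctrl, with an interval from 0.729 to 1.11 that includes 1. In TPM the passaged library was above NP-ctrl on that day, at 19.1 against 17.4. On day 5 the FPKM was 32.5, 13.3 and 22.1 in the NP-ctrl, NP-IWP2 and passaged libraries. The values were 343, 70.2 and 15.6 on day 7 and 368, 77.5 and 7.13 on day 10. From day 7 the 3 arms were in the same order, with NP-ctrl the highest and passaged cells the lowest. NP-ctrl was 22.0-fold above passaged cells on day 7 (20.3 to 23.9) and 51.6-fold on day 10 (45.9 to 58.2). NP-IWP2 lay between them, 4.88-fold below NP-ctrl on day 7 (4.69 to 5.09) and 4.75-fold below on day 10 (4.57 to 4.93). FRZB in NP-IWP2 was below NP-ctrl on all 4 days, already on day 3 with a ratio of 0.457 (0.348 to 0.593).

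SFRP2, which encodes a secreted Frizzled-related protein expressed in pluripotent stem cells, lies on chr4:153780591-153789083, minus strand. Its FPKM was 399, 246 and 106 on days 0, 1 and 2. On day 3 it stood at 43.3, 42.0 and 39.2 in the NP-ctrl, NP-IWP2 and passaged libraries. The arms thus lay close together on the first day after replating, when the passaged library was 0.905 times NP-ctrl (0.835 to 0.980). In TPM the order on that day was reversed, at 153, 161 and 169 in the NP-ctrl, NP-IWP2 and passaged libraries. On day 5 the FPKM was 2.24, 1.91 and 7.91 in the NP-ctrl, NP-IWP2 and passaged libraries. The values were 0.76, 0.43 and 0.53 on day 7 and 21.0, 1.23 and 0.07 on day 10, this final value from 2 counts. Passaged cells stood 3.53-fold above NP-ctrl on day 5 (2.70 to 4.68) and 4.13-fold above NP-IWP2 (3.07 to 5.66). On day 10 the passaged-to-NP-ctrl ratio was 0.00313 (0.000378 to 0.0114). On day 5 the summed FPKM of 3 pluripotency markers was 6.78, 6.95 and 44.1 in the NP-ctrl, NP-IWP2 and passaged libraries. Of these markers SOX2 was the one above both static arms (41.6 FPKM, against 0.51 and 0.65), POU5F1 was at 6.26, 6.27 and 2.47 in the NP-ctrl, NP-IWP2 and passaged libraries, and NANOG was near 0. Their part in the SFRP2 result was not tested.

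APCDD1L lies on chr20:58459101-58515399, minus strand. Its FPKM was 1.29, 0.18 and 14.2 on days 0, 1 and 2, a 78.7-fold step from day 1 to day 2 (46.7 to 144). At day 3 the level was 5.55, 20.9 and 2.26 in the NP-ctrl, NP-IWP2 and passaged libraries. The NP-IWP2 library was the highest on this and every later day. On day 5 the FPKM was 2.00, 11.8 and 3.80 in the NP-ctrl, NP-IWP2 and passaged libraries. The values were 4.46, 16.8 and 0.82 on day 7 and 3.21, 10.8 and 0.42 on day 10. NP-IWP2 exceeded NP-ctrl 3.77-fold (3.35 to 4.24), 5.89-fold (4.89 to 7.15), 3.76-fold (3.27 to 4.33) and 3.38-fold (2.87 to 3.99) on days 3, 5, 7 and 10. APCDD1L was the one member at least 1 above NP-ctrl on the log2 scale in NP-IWP2 on all 4 days. The passaged-to-NP-ctrl ratio was 0.406 (0.330 to 0.497), 1.90 (1.53 to 2.36), 0.185 (0.134 to 0.250) and 0.131 (0.0842 to 0.197), so passaged cells were lower on days 3, 7 and 10 and higher on day 5. The antisense gene APCDD1L-DT shares 21 of the 4210 exonic bases of APCDD1L.

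**Figure D2:**
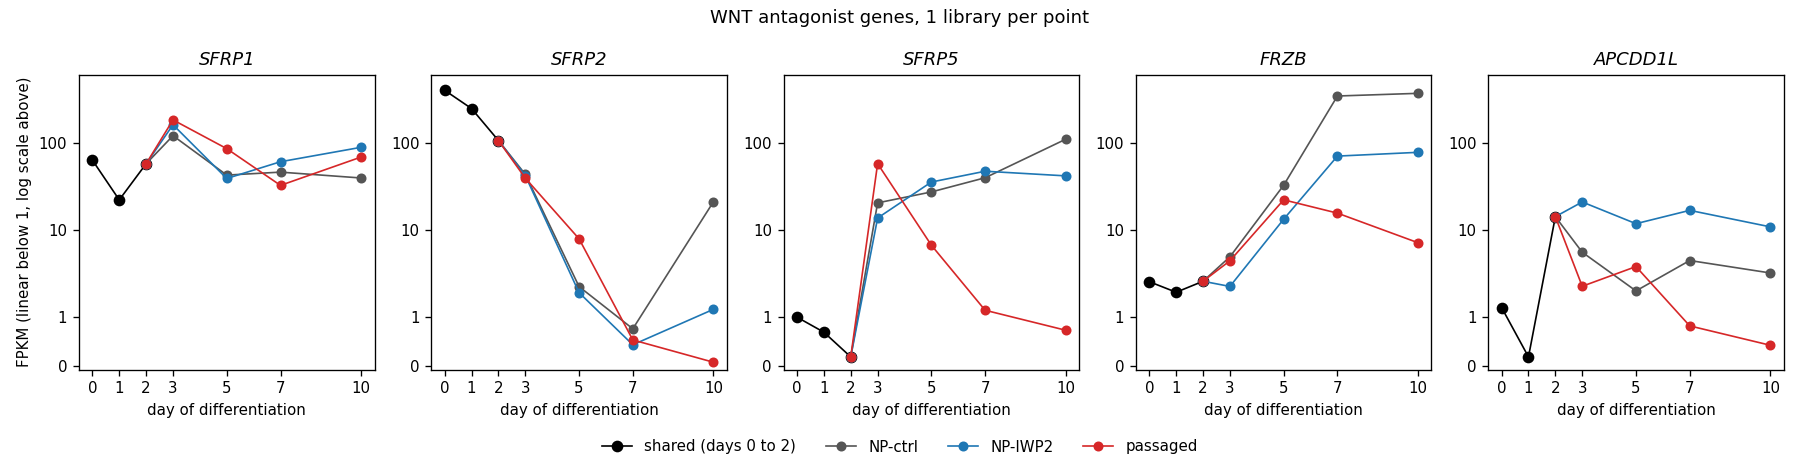
FPKM of the 5 antagonist genes against day of differentiation, on an axis that is linear below 1 and logarithmic above. Each point is 1 library, black for the shared days and coloured by arm from day 3. SFRP5 peaks in passaged cells on day 3 (57.5) and is at 0.73 on day 10. FRZB is highest in NP-ctrl and lowest in passaged cells from day 7, and APCDD1L is highest in NP-IWP2 from day 3.

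The libraries also differed in markers of other cell types, and in bulk samples fewer cells of a type and less RNA per cell cannot be told apart. All 6 epicardial and mesenchymal markers examined (WT1, TCF21, TBX18, COL1A1, COL3A1 and PDGFRA) were lower by at least 1 on the log2 scale in passaged than in NP-ctrl libraries on days 7 and 10. Their summed FPKM over days 3 to 10 ranged from 132 to 3302 in NP-ctrl, from 98.7 to 1053 in NP-IWP2 and, in passaged cells, from 87.6 to 407, and TCF21 was at 0 in passaged cells on days 7 and 10. Of 6 endoderm, yolk sac and liver markers (SOX17, FOXA2, AFP, APOA2, TTR and HNF4A), 5 were lower in this way on days 5, 7 and 10. Their sum ranged from 20.5 to 2963 in NP-ctrl, from 24.2 to 865 in NP-IWP2 and from 0.36 to 17.5 in passaged cells, with SOX17 and AFP at 0 on day 7 and FOXA2 and APOA2 at 0 on day 10 in passaged cells. These sums stood in the order NP-ctrl, NP-IWP2, passaged on days 7 and 10, as FRZB did, and SFRP2 and SFRP5 did on day 10. Not every marker in them had this order. TBX18 was higher in NP-IWP2 than in NP-ctrl on day 7 (21.8 against 7.13) and day 10 (65.1 against 40.6). So were PDGFRA (43.3 against 22.0) and SOX17 (1.91 against 1.14) on day 10. The summed FPKM of 6 cardiomyocyte markers (NKX2-5, TNNT2, MYH6, MYL7, ACTN2 and TNNI1) had the reverse order on day 10, at 472, 1442 and 3446. The part of these cells in the antagonist results, and in the receptor results below, was not tested. On day 3 the sums of the epicardial and mesenchymal list were 132, 98.7 and 173. Of this list COL1A1 (41.1, 25.5 and 102) and COL3A1 (0.06, 0.08 and 1.36) were highest in passaged cells. TCF21 (7.69, 3.12 and 1.63) and PDGFRA (83.4, 69.9 and 68.1) were lowest there, and WT1 and TBX18 were at 0.01 or less. The sums of the endoderm list on day 3 were 20.5, 26.4 and 17.5. On the same day the sum of 3 primitive streak and mesoderm markers (TBXT, MIXL1 and MESP1) was 67.2, 100.3 and 6.83. This sum was lowest in the passaged library. The sum of 4 endothelial markers (PECAM1, CDH5, KDR and TEK) was 104, 93.1 and 42.3, nearly all of it KDR (104.0, 92.9 and 40.7). PECAM1 and CDH5 were at 0.04 or less, and TEK was highest in the passaged library, at 0.28, 0.23 and 1.52. The part of these cells in the day 3 results was not tested either.

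The receptors showed another pattern. The summed FPKM of all 10 human Frizzled genes was 94.3, 90.8 and 191 on days 0, 1 and 2. In NP-ctrl it was 223, 222, 288 and 214 on days 3, 5, 7 and 10. In NP-IWP2 it was 248, 220, 330.1 and 247, and in passaged cells 165, 141, 161 and 148. The passaged sum was the lowest of its day on all 4 days, between 0.559 and 0.740 times NP-ctrl and between 0.487 and 0.665 times NP-IWP2. These ratios are of FPKM, and the Frizzled sum was not taken in TPM. The receptors within the sum moved in different directions.

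FZD4 was highest in passaged cells on every day after replating that was sampled. FZD4 binds WNT proteins and also norrin, a ligand for which it is the specific receptor in retinal vessels. It lies on chr11:86945679-86955395, minus strand. The FPKM was 2.86, 3.35 and 3.66 on days 0, 1 and 2. On day 3 it was 7.05, 6.85 and 16.9 in the NP-ctrl, NP-IWP2 and passaged libraries, the last 4.61-fold above day 2 (4.18 to 5.08). On day 5 it was 18.6, 18.7 and 41.7. Through day 5 no difference between the static arms was detectable at this depth, with ratios of NP-IWP2 to NP-ctrl of 0.971 (0.877 to 1.08) and 1.01 (0.946 to 1.07). On day 7 the FPKM was 22.5, 31.5 and 39.2 in the NP-ctrl, NP-IWP2 and passaged libraries, and on day 10 it was 22.5, 28.6 and 55.0. The passaged library was the highest on all 4 days, at 2.39 (2.20 to 2.60), 2.25 (2.13 to 2.36), 1.74 (1.66 to 1.84) and 2.44 (2.33 to 2.56) times NP-ctrl. Against NP-IWP2 the ratios were 2.46 (2.25 to 2.70), 2.23 (2.12 to 2.35), 1.24 (1.19 to 1.30) and 1.92 (1.85 to 2.01). As a share of the Frizzled sum on day 10, FZD4 was at 10.5%, 11.6% and 37.1% in the NP-ctrl, NP-IWP2 and passaged libraries, where it was the most abundant Frizzled transcript per length.

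A gene on the opposite strand, PRSS23, shares 1399 of the 7387 exonic bases of FZD4 (18.9%), and whether the counting used strand is not given in the sources used here. PRSS23 was at 0.49, 0.62 and 1.02 FPKM on day 3 in the NP-ctrl, NP-IWP2 and passaged libraries. In the same order it was at 4.22, 2.77 and 18.0 on day 5, at 5.10, 8.04 and 83.9 on day 7 and at 4.49, 7.10 and 23.4 on day 10. On day 3, PRSS23 was thus at a low level in all arms while FZD4 differed. From day 5 both genes were highest in passaged cells, and the part of reads from PRSS23 in the FZD4 values of those days was not tested.

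The promoters of FZD4 and FZD8 are shown because these receptors lay on opposite sides of NP-ctrl in passaged cells. The windows, made and marked as above, are at chr11:86955396-86955645 (minus strand) for FZD4 and chr10:35642297-35642546 (minus strand) for FZD8.
FZD4: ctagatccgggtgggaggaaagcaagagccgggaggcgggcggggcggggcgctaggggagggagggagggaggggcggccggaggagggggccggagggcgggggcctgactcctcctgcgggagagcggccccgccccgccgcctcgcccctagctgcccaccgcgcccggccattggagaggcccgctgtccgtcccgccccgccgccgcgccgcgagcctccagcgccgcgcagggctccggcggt
FZD8: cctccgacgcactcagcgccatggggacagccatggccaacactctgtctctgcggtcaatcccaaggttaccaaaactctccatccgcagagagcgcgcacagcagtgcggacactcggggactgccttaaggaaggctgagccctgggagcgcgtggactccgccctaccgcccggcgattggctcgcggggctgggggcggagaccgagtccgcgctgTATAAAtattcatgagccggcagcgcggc
The FZD4 window held none of the 3 motifs, with 80.8% GC and 33 CG dinucleotides. The FZD8 window held 1 match to the TATA motif, starting 29 bases before the gene start, with 65.2% GC and 24 CG dinucleotides.

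FZD7, a receptor of pluripotent cells and early mesoderm, is a single-exon gene on chr2:202033855-202038441, plus strand, and was the most abundant Frizzled transcript per length in most libraries. Its FPKM was 34.1, 43.3 and 104 on days 0, 1 and 2. The level on day 3 was 119, 139 and 86.8 in the NP-ctrl, NP-IWP2 and passaged libraries. On day 5 it was 78.4, 91.6 and 30.5. NP-IWP2 was the highest and passaged cells the lowest on both of these days and on the later ones. On day 7 the FPKM was 92.1, 175 and 46.9 in the NP-ctrl, NP-IWP2 and passaged libraries, and on day 10 it was 60.6, 106 and 20.7. The passaged-to-NP-IWP2 ratio was 0.624 (0.603 to 0.645), 0.333 (0.317 to 0.350), 0.268 (0.258 to 0.278) and 0.196 (0.185 to 0.207) on days 3, 5, 7 and 10. Against NP-ctrl it was 0.728 (0.703 to 0.753), 0.389 (0.370 to 0.409), 0.509 (0.488 to 0.532) and 0.342 (0.322 to 0.364). In TPM FZD7 on day 3 was at 422, 535 and 374 in the NP-ctrl, NP-IWP2 and passaged libraries, with smaller gaps than in FPKM. The share of FZD7 in the Frizzled sum on day 10 was 28.4%, 42.9% and 14.0% in the NP-ctrl, NP-IWP2 and passaged libraries.

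FZD8, a single-exon gene on chr10:35638247-35642296, minus strand, encodes a receptor whose WNT-binding domain is widely used to study how WNT proteins bind. Its FPKM was 6.34, 2.38 and 7.43 on days 0, 1 and 2. On day 3 it reached 9.01, 17.2 and 5.96 in the NP-ctrl, NP-IWP2 and passaged libraries. On day 5 it was 34.0, 24.2 and 8.46. Passaged cells had the lowest value on every day. On day 7 the FPKM was 73.5, 38.2 and 16.4 in the NP-ctrl, NP-IWP2 and passaged libraries, and on day 10 it was 38.5, 20.5 and 18.2. The passaged-to-NP-ctrl ratio was 0.661 (0.576 to 0.758), 0.249 (0.226 to 0.274), 0.223 (0.208 to 0.239) and 0.471 (0.438 to 0.507). By day 10 passaged cells and NP-IWP2 were close, with a ratio of 0.884 (0.816 to 0.958). A transcript on the opposite strand shares 318 of the 4050 exonic bases of FZD8 and had at most 29 counts in any library.

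FZD5 encodes a receptor of epithelial and pluripotent cells and lies on chr2:207762598-207769906, minus strand. It was highest at the start, at 23.6, 7.83 and 3.98 FPKM on days 0, 1 and 2. Day 3 brought 1.60, 5.04 and 1.95 in the NP-ctrl, NP-IWP2 and passaged libraries. NP-IWP2 was 3.15-fold above NP-ctrl on that day (2.65 to 3.76), while passaged cells were at 1.22 times NP-ctrl, with an interval that began at 0.990 and so included 1. It was then at 1.86, 2.66 and 1.02 on day 5, at 2.45, 2.31 and 0.73 on day 7 and at 5.03, 3.09 and 1.04 on day 10. Passaged cells were the lowest on these 3 days, at 0.551 (0.433 to 0.698), 0.297 (0.227 to 0.386) and 0.206 (0.166 to 0.254) times NP-ctrl.

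FZD10 is a single-exon gene on chr12:130162459-130165740, plus strand, and was the scarcest member. Its FPKM was 1.38, 7.19 and 1.38 on days 0, 1 and 2, a single peak on the day after CHIR99021. On day 3 it was at 0.34, 0.18 and 1.14 in the NP-ctrl, NP-IWP2 and passaged libraries, from 18, 8 and 51 counts. The passaged library was above NP-ctrl on that day by a ratio of 3.37 (1.93 to 6.12). From day 5 no library held more than 4 counts, so no difference was detectable at this depth.

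**Figure D3:**
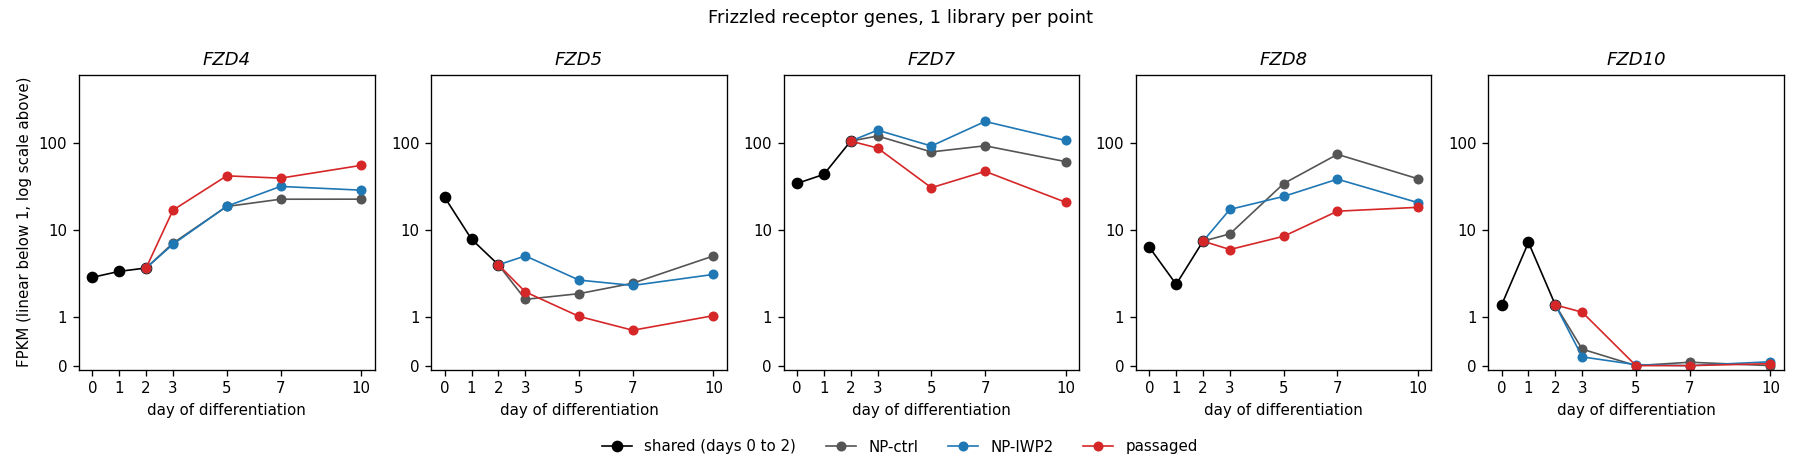
FPKM of the 5 Frizzled members against day of differentiation, drawn as for the antagonists with 1 library per point. FZD4 is highest and FZD7 and FZD8 are lowest in passaged cells on days 3, 5, 7 and 10, and FZD10 is near 0 from day 5.

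Over the members, the counts of differences of at least 1 were as follows, each beside the percentage of the 21206 genes above the filter (an FPKM of 1 or more in any library). All 10 members were among these genes. The members were chosen with these contrasts known, and nothing is read from such counts. For passaged cells against NP-ctrl, 3 of 10 members were counted on day 3 (8.49% of all genes), with SFRP5 and FZD4 higher and APCDD1L lower. On day 5 there were 5 (8.16%), with SFRP2 and FZD4 higher and SFRP5, FZD7 and FZD8 lower. SFRP1, with a difference of 0.99, lay just outside. On day 7 there were 4 (12.6%), all lower: SFRP5, FRZB, APCDD1L and FZD8, with FZD5 just outside. On day 10 there were 8 (17.4%), of which FZD4 was higher and SFRP2, SFRP5, FRZB, APCDD1L, FZD5, FZD7 and FZD8 were lower. The members' median difference was 0.03, -0.25, -0.98 and -1.53 on days 3, 5, 7 and 10, beside 0.03, 0, -0.07 and -0.09 for all genes.

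Against NP-IWP2, 5 members of the passaged libraries were counted on day 3 (8.7% of all genes), with SFRP5 and FZD4 higher and APCDD1L, FZD5 and FZD8 lower. On day 5 there were 7 (7.51%), with SFRP1, SFRP2 and FZD4 higher and SFRP5, APCDD1L, FZD7 and FZD8 lower. On day 7 there were 5 (6.69%), namely SFRP5, FRZB, APCDD1L, FZD7 and FZD8, all lower. On day 10 there were 6 (10.1%), namely SFRP2, SFRP5, FRZB, APCDD1L, FZD5 and FZD7, all lower, FZD5 just inside the limit. Between NP-IWP2 and NP-ctrl, 2 members were counted on day 3 (4.15%), APCDD1L and FZD5, both higher. The 2 of day 5 (2.97%) and of day 7 (7.26%) were APCDD1L, higher, and FRZB, lower. On day 10 there were 5 (9.35%), with SFRP1 and APCDD1L higher and SFRP2, SFRP5 and FRZB lower. The comparisons share libraries with each other, so they are not independent.

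**Figure D4:**
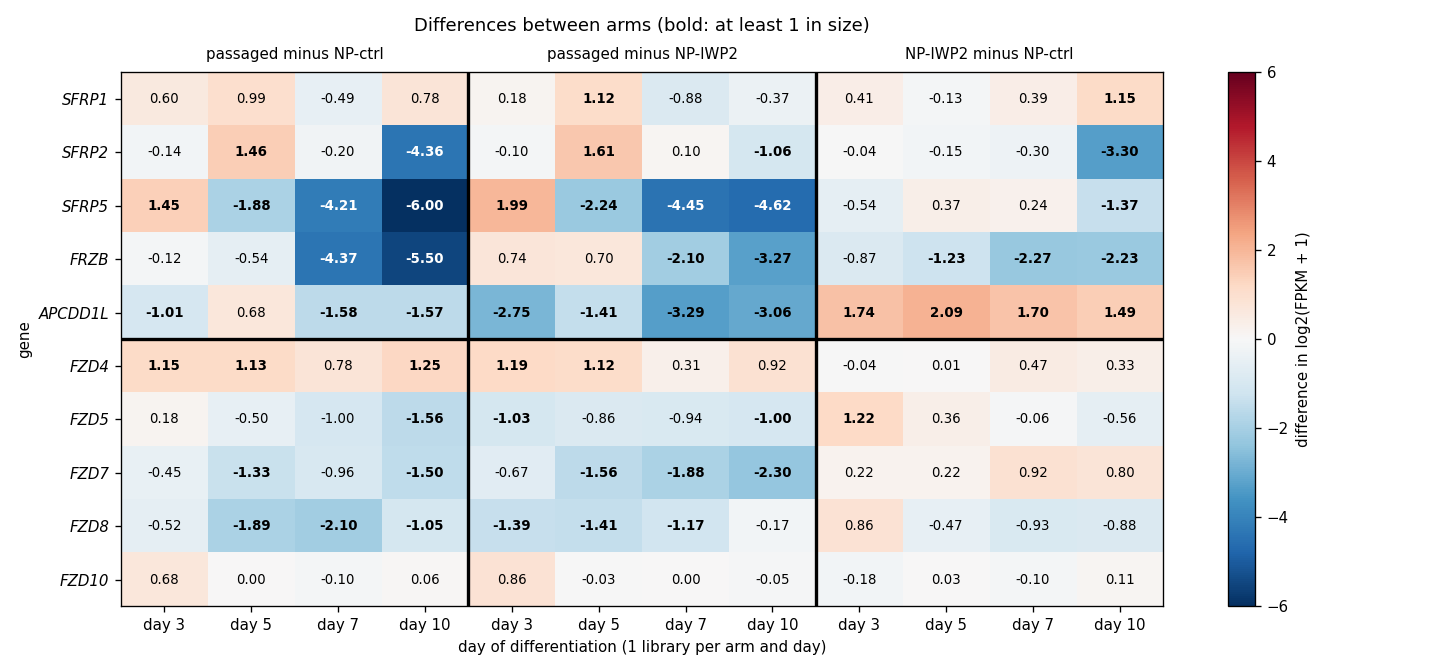
Differences in log2(FPKM + 1) of the 10 members (rows) between arms on each day (columns), with 1 library per arm and day and values of at least 1 in size in bold. The differences of passaged cells from NP-ctrl run from 1.46 (SFRP2, day 5) down to -6.00 (SFRP5, day 10), and FZD4 is above both static arms on every day.

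The other genes of the pathway were taken from lists of 41 antagonists, receptors, co-receptors, R-spondins, secretion factors and Dishevelled proteins, of which 37 passed the filter (DKK2, SFRP4, WIF1 and RNF43 did not). They were tested with edgeR's quasi-likelihood test on the 12 libraries after day 2, with a block for day. The fit holds a single difference between arms for all days. A gene whose arms change order between days can therefore fail the test although the arms differ on each day. The spread behind each test is thus between days, and whether these days belong to a single series of cultures is not given. The lists, too, were chosen with earlier results of these data known, so the counts beside shares of all genes are a description. Against NP-ctrl, passaged cells had 2 of 37 genes higher and 4 lower at a Benjamini-Hochberg adjusted p under 0.05, beside 1.64% of all genes higher and 2.76% lower. Against NP-IWP2 none was higher and 3 were lower in passaged cells, beside 0.415% and 0.915% of all genes. Between NP-IWP2 and NP-ctrl none passed, by edgeR, DESeq2 or limma, beside 0.00943% of all genes in each direction by edgeR. At an unadjusted p under 0.05 there were 4 of the 37 in this comparison, beside 4.76% of all genes. The median log2 change of the 37 genes was -0.23, -0.11 and -0.06 in the 3 comparisons, beside 0.00, 0.02 and -0.01 for all genes.

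Among the receptors outside the members, FZD2 fell in passaged cells. Its FPKM on days 3, 5, 7 and 10 was 68.0, 64.4, 64.2 and 41.4 in NP-ctrl and 60.9, 58.2, 38.2 and 26.2 in NP-IWP2. In passaged cells it was 33.8, 25.2, 20.7 and 15.1. The passaged library was below both static libraries on 4 of 4 days. The log2 change was -1.31 (SE 0.15) against NP-ctrl, with an edgeR adjusted p of 0.00127, and -0.87 (SE 0.15) against NP-IWP2, with an edgeR adjusted p of 0.0238. The first call was kept under 9 of 10 alternative fits, with adjusted p up to 0.175 in the fit without the day block. The second was kept under 4 of 10, with adjusted p up to 0.708, and was lost without day 5, day 7 or day 10. FZD6, the next most abundant Frizzled outside the members, had 8.52, 15.6, 18.7 and 25.4 FPKM in NP-ctrl and 6.06, 21.4, 19.6 and 17.6 in passaged cells and did not pass the test.

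Of 10 other antagonists tested, 1 rose and 1 fell against NP-ctrl. CER1 encodes a secreted antagonist of NODAL and BMP proteins. It stands in this list of antagonists, but an action on WNT proteins in these cells was not tested. CER1 had 200.2 FPKM on day 1 and 174 on day 2. On day 3 the values were 6.85, 11.1 and 0.18 in the NP-ctrl, NP-IWP2 and passaged libraries, the last from 3 counts, a ratio to NP-ctrl of 0.0260 (0.00530 to 0.0776). It was under 1 FPKM in all arms from day 5. Its edgeR adjusted p was 0.00874 against NP-ctrl and 0.0184 against NP-IWP2. These calls were kept under 6 and 4 of 10 alternatives (adjusted p up to 0.326 and 0.734). Both were lost without day 3, with limma, with only the 2 arms compared and with no day block. The second was also lost without day 5 or day 7. DKK3, a secreted relative of the Dickkopf proteins, had a log2 change of 0.88 (SE 0.22) against NP-ctrl with an edgeR adjusted p of 0.0496 and was higher on 4 of 4 days, for example at 13.7 against 6.18 FPKM on day 10. Its call was kept under 3 of 10 alternatives (adjusted p up to 0.660) and lost without day 5, day 7 or day 10. DKK1, which binds LRP5 and LRP6, peaked at 220 FPKM on day 1. On day 5 DKK1 was at 6.90, 2.61 and 36.0 FPKM in the NP-ctrl, NP-IWP2 and passaged libraries, and on day 10 at 18.0, 41.9 and 2.87, and it did not pass the test.

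Of 9 co-receptors and other receptors, KREMEN1 rose against NP-ctrl. KREMEN1 is a receptor of Dickkopf proteins that takes LRP6 off the surface. Its FPKM was 0.91, 1.23, 1.24 and 1.38 in NP-ctrl and 1.03, 2.63, 4.38 and 5.67 in passaged cells on days 3, 5, 7 and 10, a log2 change of 1.42 (SE 0.35) with an edgeR adjusted p of 0.0471. Its call was kept under 4 of 10 alternatives (adjusted p up to 0.296) and lost without day 5, day 7 or day 10. PTK7 and ROR2, the most abundant of this list, are receptors of non-canonical WNT signalling, and neither passed. ROR2 was at 28.6, 36.2 and 52.7 FPKM on day 3 and at 11.1, 9.90 and 2.97 on day 10 in the NP-ctrl, NP-IWP2 and passaged libraries, and PTK7 at 53.8, 57.7 and 73.1 on day 3 and at 26.3, 20.8 and 12.5 on day 10.

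Of 8 R-spondins and genes of receptor turnover, 2 fell against NP-ctrl. LGR5, a receptor of R-spondins, was at 31.0, 23.3 and 5.72 FPKM on day 3 and at 39.2, 25.1 and 2.68 on day 5 in the NP-ctrl, NP-IWP2 and passaged libraries, and under 2 in all arms later. Its log2 change against NP-ctrl was -2.69 (SE 0.44) with an edgeR adjusted p of 0.00791, kept under 7 of 10 alternatives (adjusted p up to 0.551). RSPO1, an R-spondin, was at 9.52 FPKM in NP-ctrl and 4.21 in NP-IWP2 on day 7 and at 17.1 and 3.26 on day 10, with 0 counts in passaged cells on both days. Against a floor of 3 counts per library NP-ctrl was at least 146-fold higher on day 7 and at least 265-fold higher on day 10. The edgeR adjusted p of RSPO1 was 0.00506 against NP-ctrl and 0.0236 against NP-IWP2, each call kept under 6 of 10 alternatives (adjusted p up to 0.182 and 0.598) and lost without day 7, the second also without day 10. LGR4 was the most abundant of this list, at 62.2, 55.5 and 61.7 FPKM on day 10. RSPO3, second in level, was at 29.8, 77.5 and 38.9 FPKM on that day, and neither gene passed.

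WLS, which carries WNT proteins to the surface, was at 81.9, 40.5 and 198 FPKM on day 3 and at 197, 171 and 87.9 on day 5 in the NP-ctrl, NP-IWP2 and passaged libraries. PORCN, the target of IWP2, was between 1.63 and 3.15 FPKM in these 12 libraries. Neither passed, nor did any of the 3 Dishevelled genes, of which DVL3 and DVL1 were the most abundant. On day 10 DVL3 was at 32.1, 24.2 and 22.2 FPKM and DVL1 at 9.74, 6.12 and 6.94 in the same order of arms.

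The genes whose profile over the 15 libraries was most like that of each member were found by Pearson correlation of log2(FPKM + 1) among 10161 protein-coding genes, as a description, since the libraries share days and treatments. FZD4 was most like MYLK3, the kinase of cardiac myosin light chain (0.983), ANTXR2 (0.982) and the collagen gene COL2A1 (0.981). FRZB was most like SLC7A7 (0.973), the endothelial receptor gene TEK (0.971) and ARHGDIB (0.970). The other endothelial markers were not highest in NP-ctrl on day 10, as FRZB was. KDR was at 93.0, 100.4 and 119 FPKM in the NP-ctrl, NP-IWP2 and passaged libraries of that day. PECAM1 was at 0.81, 1.29 and 0.30 and CDH5 at 1.62, 2.44 and 0.36. SFRP2 was most like PDLIM1 (0.961), FGF2 (0.946) and LSM6 (0.945). FZD10 was most like PCSK1 (0.953), VANGL1 (0.948) and SHISA8 (0.945), and FZD8 most like ANGPTL4 (0.944), FAM3A (0.918) and FGFR2 (0.915). The profile of FZD5 was nearest to MFSD13A (0.922), SLC39A14 (0.908) and VSNL1 (0.902), and that of SFRP5 to ASIC1 (0.909), ASH2L (0.902) and TFPI (0.898). Weaker likeness was found for FZD7, with MFGE8 (0.834), PCDH8 (0.823) and ARHGEF25 (0.817), for SFRP1, with AKR1C3 (0.819), INSRR (0.801) and BTBD3 (0.787), and for APCDD1L, with PKNOX2 (0.805), RSRC2 (0.770) and ZNF217 (0.768). Among the members themselves the most opposed profiles over the 15 libraries were those of SFRP2 and FZD4, with a correlation of -0.89.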

How the data were processed

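RNA was measured in 15 bulk libraries. Per the labels and the submitters' processing notes, the authors trimmed reads with Cutadapt 1.9.1, aligned them to hg38 with HISAT2 2.0.1, counted them per gene with HTSeq 0.6.1 and listed DESeq2. The deposited counts are whole reads per gene, and the deposited FPKM values are those counts scaled by exonic length and library total (recomputed to within 0.005). The library kit named (SMRTbell) is a long-read kit whereas the tools are for short reads, and which reads were counted could not be resolved, so per-length levels carry that doubt. Strand use in counting is not given in the sources used here. Spans and exons of overlapping genes came from GENCODE release 44.

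Groups came from sample labels. Members and gene lists were chosen with earlier results of these data known. Per day, single libraries were compared on log2(FPKM + 1), with FPKM ratios and exact 95% intervals from the Clopper-Pearson interval, which cover counting error only. Only the 21206 genes that reached an FPKM of 1 in any library were used. In ratios a library at 0 counts was set to a floor of 3. Pathway genes were tested with edgeR 4.0.16 (R 4.3.3, TMM, arm and day as factors, Benjamini-Hochberg adjustment over all 21206 genes), after a check on simulated counts. The samples are separate days, so p-values measure only the spread between days. Whether all came from 1 culture series is not given in the sources used here. Alternatives were DESeq2 1.42.0, limma 3.58.1 on log2(FPKM + 1), median-of-ratios size factors, no filter, 2 arms only, no day block and leaving out each day, and, for members, a pseudocount of 0.1, TPM, TMM-scaled FPKM and a threshold of 2. Named besides the members were pathway genes past the test, the 2 of each list with the highest mean FPKM, and the 3 genes most like each member (FPKM of at least 5 in 1 library).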

Additional observations from a re-analysis of the deposited data

Results flagged for a closer look

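SFRP2 and SFRP5 differed between arms in opposite directions on different days. On the log2(FPKM + 1) scale SFRP5 in passaged cells was 1.45 above NP-ctrl on day 3 and at -6.00 relative to it on day 10. Relative to NP-IWP2 it was at 1.99 on day 3 and -4.62 on day 10. SFRP2 in passaged cells was at 1.46 relative to NP-ctrl on day 5 and -4.36 on day 10, and at 1.61 and -1.06 relative to NP-IWP2. Each value compares 1 library with 1 library, and the difference between days was not tested.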

How the results depend on the processing

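With 1 library per arm and day, depth sets the counting intervals and no spread between cultures was measured. Of 224 alternative values of the members' log2 differences, 165 moved by less than their counting interval, 59 moved further and none changed sign among counted differences, with the largest move 0.29 under TPM and 0.18 under TMM-scaled FPKM. Of the alternative counts of members, 38 stayed within 1.5 times and 10 did not. These 10 came with a threshold of 2: between passaged cells and NP-ctrl 0, 0 and 3 members on days 3, 5 and 10, between passaged cells and NP-IWP2 1, 1 and 3 on days 3, 5 and 7, and between NP-IWP2 and NP-ctrl 0, 1, 1 and 2 on days 3, 5, 7 and 10.

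Counts of pathway genes past the test depended on the fit. For passaged cells against NP-ctrl (6 by edgeR) there were 10 with DESeq2, 1 with limma, 11 with no filter, 1 with only the 2 arms, 0 with no day block, 10 without day 3 and 3 without day 7. For passaged cells against NP-IWP2 (3) there were 8 with DESeq2, 0 with limma, 8 with no filter, 1 with only the 2 arms, 0 with no day block, 6 without day 3, 1 without day 5 and 0 without day 7. For NP-IWP2 against NP-ctrl (0) there was 1 with only the 2 arms. The share of all genes called also moved with the fit, for passaged cells against NP-ctrl from 4.4% by edgeR to 10.1% with DESeq2, 0.769% with limma, 6.2% with no filter, 0.514% with only the 2 arms, 0.00472% with no day block, 11.2% without day 3 and 0.627% without day 7. Against NP-IWP2 it was 1.33% by edgeR and from 0.00943% with no day block to 4.21% with DESeq2. At an unadjusted p under 0.05 the edgeR counts were 12, 12 and 4 of 37 in the 3 comparisons, beside 19.2%, 12.9% and 4.76% of all genes. With no day block they were 10 and 6 in the comparisons of passaged cells (10.8% and 5.68% of all genes). Against NP-IWP2 there were 10 with limma (11.8%) and 9 without day 7 (8.16%). The causes were not tested. The arms were matched by day through the day block, and the labels give no replicate numbers for a further block.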
